A study of Mus musculus with 4 samples.

Results

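The integrin and laminin genes of mouse embryonic fibroblasts (MEFs) were examined with and without exposure to genistein. They were the gene rows of the deposited count table whose symbol names an integrin alpha chain, an integrin beta chain or a laminin chain, and 36 of 47937 gene rows are described: 18 alpha integrins, 8 beta integrins and 10 laminin chains. MEFs are connective tissue cells grown in culture from mouse embryos, and genistein is a soy isoflavone that inhibits tyrosine kinases and DNA topoisomerase II. The untreated group comprised 2 libraries of wild-type MEFs, and the genistein group comprised 2 libraries of MEFs given 50 µM genistein for 24 h. The treated libraries carry the treatment in place of a genotype in their labels, whereas the series' design names wild-type cells. Age, passage, the number of embryos and whether the untreated cells received the solvent are not given in the labels. Nothing in the labels states that the 2 libraries of a group came from separate cultures, so the p-values measure the spread between these libraries, which may be technical.

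Integrins are receptors at the cell surface that tie the cytoskeleton to the extracellular matrix. Each receptor is a pair of 1 alpha and 1 beta chain, and the pair decides the ligand: some bind collagens, some bind laminins, some bind the RGD motif of fibronectin and vitronectin, and others serve leukocytes. Laminins are secreted trimers of 1 alpha, 1 beta and 1 gamma chain that assemble into the basement membrane. Fibroblasts are known for receptors of collagen and fibronectin that share the beta chain encoded by Itgb1.

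Each library held between 28591958 and 31464284 counts, and repeats took between 12.0% and 14.6% of them. Of 13 fibroblast markers, 10 were above 10 counts in every library, while Thy1 was at 0 and Lum did not pass 10 counts in any. The summed normalised count of the 13 was 466915 and 479075 in untreated and 460741 and 451928 in genistein libraries. Single fibroblast markers moved both ways, among them Dcn (log2 fold change 1.08) and Pdgfrb (-0.73). Markers of other cell types also moved between the groups. The summed normalised count of 11 leukocyte markers went from 217 and 211 in untreated to 580 and 592 in genistein libraries, carried by Cd68 and Csf1r, while the defining leukocyte gene Ptprc was at 0 or 1 counts and Adgre1, Cd3e, Laptm5 and Tyrobp were at 0. The sum of 10 epithelial markers went from 1219 and 1180 to 283 and 270, carried by the keratins, with Epcam, Krt5 and Esrp1 at 0. The remaining sums went from 25.0 and 30.7 to 85.3 and 98.2 for 7 endothelial markers, mostly Kdr, from 39.0 and 32.8 to 289.7 and 268 for 8 skeletal muscle markers, mostly Des, from 61.9 and 59.3 to 74.1 and 65.8 for 5 megakaryocyte markers, and from 1375 and 1260 to 1154 and 1103 for 6 Schwann and neural markers. Their part in the results was not tested. In these bulk libraries, fewer cells of a type and less RNA per cell cannot be told apart.

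The fibroblasts held transcripts of most of the family. In all, 26 of the 36 genes had enough counts for a test: 10 alpha integrins, 7 beta integrins and 9 laminin chains. Of these, 24 reached the count filter in at least 1 untreated library, whereas Lama3 and Lama4 reached it in the genistein libraries alone. The 10 genes that were not tested had at most 7 counts in any library. Itga4, Itgad and Itgax had none, and a count of 0 allows up to 3 counts in a library for counting error alone. The others were Itga2, a collagen receptor chain, Itga8, an RGD receptor chain, the leukocyte chains Itgae, Itgal and Itgam, the RGD receptor chain Itgb6 and the laminin chain Lama2. Itgam had 0 and 0 counts in the untreated and 5 and 4 counts in the genistein libraries, too few for a fold, and its annotation overlaps that of Gm49368 on the same strand.

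Levels between genes were compared as normalised counts per kilobase of merged exon. A normalised count is a count scaled to the mean effective library size, and merged exons join all annotated exons of a gene. Among the alpha chains, the untreated level was 1059 ± 2.99 (SD, n = 2) for Itga3, a laminin receptor chain, 931 ± 15.4 for Itgav, the chain of the vitronectin receptors, and 532 ± 3.15 for Itga5, the chain of the fibronectin receptor. These intervals did not overlap, and the fourth chain, Itga6, followed at 140 ± 5.01 per kilobase. Among the beta chains, Itgb1 stood at 4033 ± 18.9 per kilobase, above Itgb5 at 485 ± 4.22 and Itgb2 at 117 ± 1.86. Itgb8 and Itgb3, at 61.0 ± 1.77 and 60.4 ± 6.02 per kilobase, did not differ beyond their spread. Among the laminin chains, Lamc1 stood at 1320 ± 26.2, Lama5 at 1039 ± 37.5, Lamb1 at 875 ± 2.93 and Lamb2 at 322 ± 9.04 per kilobase. The leading laminin chains were thus 1 gamma, 1 alpha and 2 beta chains. The spread does not cover the choice of gene length, and some of these orders depend on it. By the longest transcript, the untreated share of the class was 38.4% for Itgav and 33.6% for Itga3. It was 34.4% for Lamb1, 32.8% for Lamc1 and 23.8% for Lama5. Itgb8, at 1.56% ± 0.03, then stood above Itgb3, at 1.20% ± 0.11.

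**Figure D1:**
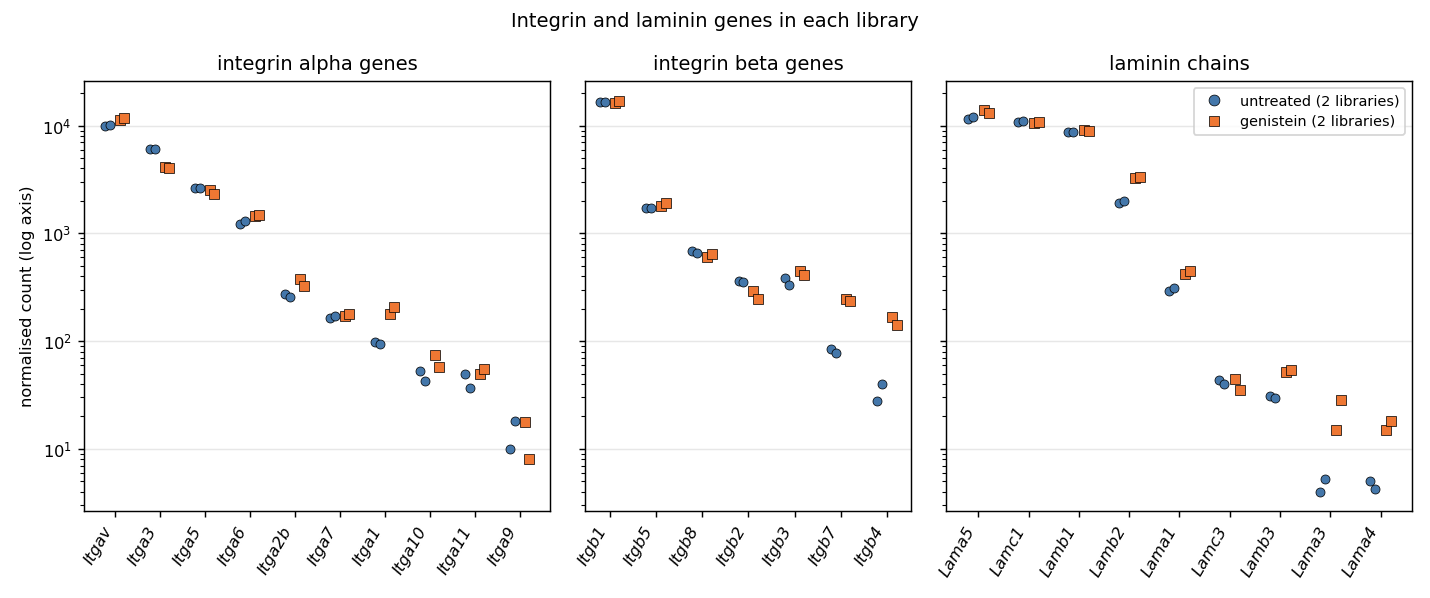
Normalised counts (log axis) of the 26 tested genes, with a panel for each class, circles for the 2 untreated and squares for the 2 genistein libraries; counts are not divided by length here. Itgb1 lies highest of all, between 16121 and 17061 normalised counts, and Lama3 and Lama4 are the lowest laminin chains of the untreated libraries.

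Promoter sequences are shown for 3 of the highest genes and for 3 lower ones that rose. Of the 36 genes, 23 had an entry in the RefSeq promoter set for GRCm38.p6, which spans 250 bases before to 50 bases after each start. The GC box, the letters GGGCGG or CCGCCC, which are known as a binding motif of Sp1, was present in 35.7% of all 32851 promoters and in those of 11 of these 23 genes. It lay in the promoter of all 7 with an entry among the 3 highest genes of each class, in 0 of the 9 other tested genes with an entry, and in 4 of 7 genes that were not tested. The TATA box, written TATAAA and searched on both strands, was found in 13.6% of all promoters and in none of the 26 member promoters. The AP-1 site, written TGANTCA and searched on both strands, was found in 7.81% of all promoters and in 3 of the 26. A match is a description of the letters in this window and not a bound site.
The highest alpha and beta chains and the highest laminin chain with an entry, by merged exon length, are given first. They read as follows from 5′ to 3′ on the strand of the gene, with GC boxes in capitals.
Itgb1 (chr8:128685404-128685703, plus strand): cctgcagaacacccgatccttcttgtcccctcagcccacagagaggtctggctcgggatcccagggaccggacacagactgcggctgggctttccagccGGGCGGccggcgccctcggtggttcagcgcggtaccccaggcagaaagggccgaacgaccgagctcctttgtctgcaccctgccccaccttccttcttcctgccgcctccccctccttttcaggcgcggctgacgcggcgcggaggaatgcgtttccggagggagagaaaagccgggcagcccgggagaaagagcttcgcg
Itga3 (chr11:95076665-95076964, minus strand): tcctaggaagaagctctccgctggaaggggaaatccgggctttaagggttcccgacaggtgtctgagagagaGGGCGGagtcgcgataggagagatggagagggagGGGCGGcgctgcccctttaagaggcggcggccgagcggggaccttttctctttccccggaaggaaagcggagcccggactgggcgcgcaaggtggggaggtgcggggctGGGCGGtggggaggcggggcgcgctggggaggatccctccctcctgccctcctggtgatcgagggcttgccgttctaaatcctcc
Lama5 (chr2:180225810-180226109, minus strand): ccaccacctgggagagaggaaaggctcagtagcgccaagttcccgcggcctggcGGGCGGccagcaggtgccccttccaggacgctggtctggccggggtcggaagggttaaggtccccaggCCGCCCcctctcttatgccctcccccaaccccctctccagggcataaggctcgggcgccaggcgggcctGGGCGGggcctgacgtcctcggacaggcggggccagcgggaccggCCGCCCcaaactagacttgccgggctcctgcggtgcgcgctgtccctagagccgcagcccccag
The GC box occurred 1 time in the window of Itgb1, 3 times in that of Itga3 and 4 times in that of Lama5. Itgb7, Itga1 and Lamb2, which rose with genistein, have no GC box in their windows. Of the 7 high genes that have a GC box, Itgav, Itgb5 and Lama5 rose, Itga3 and Itga5 fell, and Itgb1 and Lamb1 did not pass the test. Of the 9 other tested genes with an entry, which have none, Itga2b, Itga10, Itga1, Itgb7, Lamb2 and Lamb3 rose. Itga11, Itga9 and Itgb8 did not pass the test. Among the tested genes with an entry, the box and the untreated level go together. This does not extend to the genes that were not tested, where 4 of 7 have the box with at most 7 counts in any library. A link of the box to the level or to the change was not tested.
Itgb7 (chr15:102231886-102232185, minus strand): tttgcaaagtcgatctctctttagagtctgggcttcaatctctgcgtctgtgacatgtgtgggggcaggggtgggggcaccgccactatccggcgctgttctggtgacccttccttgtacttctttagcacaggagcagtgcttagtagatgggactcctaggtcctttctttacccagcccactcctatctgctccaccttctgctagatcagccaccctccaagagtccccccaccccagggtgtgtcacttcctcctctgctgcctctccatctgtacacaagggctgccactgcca
Itga1 (chr13:115101915-115102214, minus strand): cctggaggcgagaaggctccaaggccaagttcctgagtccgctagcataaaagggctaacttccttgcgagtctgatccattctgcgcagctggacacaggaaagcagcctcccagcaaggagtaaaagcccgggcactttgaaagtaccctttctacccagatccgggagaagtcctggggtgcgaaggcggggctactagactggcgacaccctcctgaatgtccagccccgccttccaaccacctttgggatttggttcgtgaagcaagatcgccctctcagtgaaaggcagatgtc
Lamb2 (chr9:108479612-108479911, plus strand): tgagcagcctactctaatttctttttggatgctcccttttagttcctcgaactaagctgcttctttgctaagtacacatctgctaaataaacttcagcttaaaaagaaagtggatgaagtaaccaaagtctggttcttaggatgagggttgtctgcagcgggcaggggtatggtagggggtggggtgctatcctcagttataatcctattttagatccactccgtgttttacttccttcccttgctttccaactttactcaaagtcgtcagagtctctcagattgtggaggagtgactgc
The share of G and C was 67.3% for Itgb1, 66.7% for Itga3 and 72.7% for Lama5. It was 56.3% for Itgb7, 56.7% for Itga1 and 44.0% for Lamb2. These windows are chosen examples, Lama5 rose as well, and no difference in this share was tested.

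After genistein, more of these genes rose than fell. Of the 26 tested, 15 were higher and 3 lower at an adjusted p under 0.05 in edgeR's quasi-likelihood test, which is 57.7% and 11.5%. Of all 16240 tested genes, 33.5% were higher and 38.2% lower. The median log2 fold change was 0.22 for the 26 and -0.03 for all genes. By class, 5 alpha chains rose and 2 fell (median 0.22), 4 beta chains rose and 1 fell (median 0.10), and 6 of the 9 laminin chains rose (median 0.52). Lama3 and Lama4 are among these 6 although they reached the count filter through the genistein libraries alone. Without them, 13 of 24 genes rose and 3 fell (median 0.21), and 4 of 7 laminin chains rose (median 0.20). The values of the groups did not overlap for 20 of the 26, whereas 85.3% of all tested genes had groups that did not overlap.

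Few of these changes were large, which was also so for all tested genes. A log2 fold change beyond 1 in either direction and a mean normalised count over 100 were then required as well. Of the 26 genes, 2 were higher, Itga1 and Itgb7, and 0 were lower. The same thresholds were passed upwards by 3.92% and downwards by 4.16% of all tested genes. Itgb4, at a mean of 93.7, and the low genes Lama3 and Lama4 had folds beyond the threshold but means below 100.

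**Figure D2:**
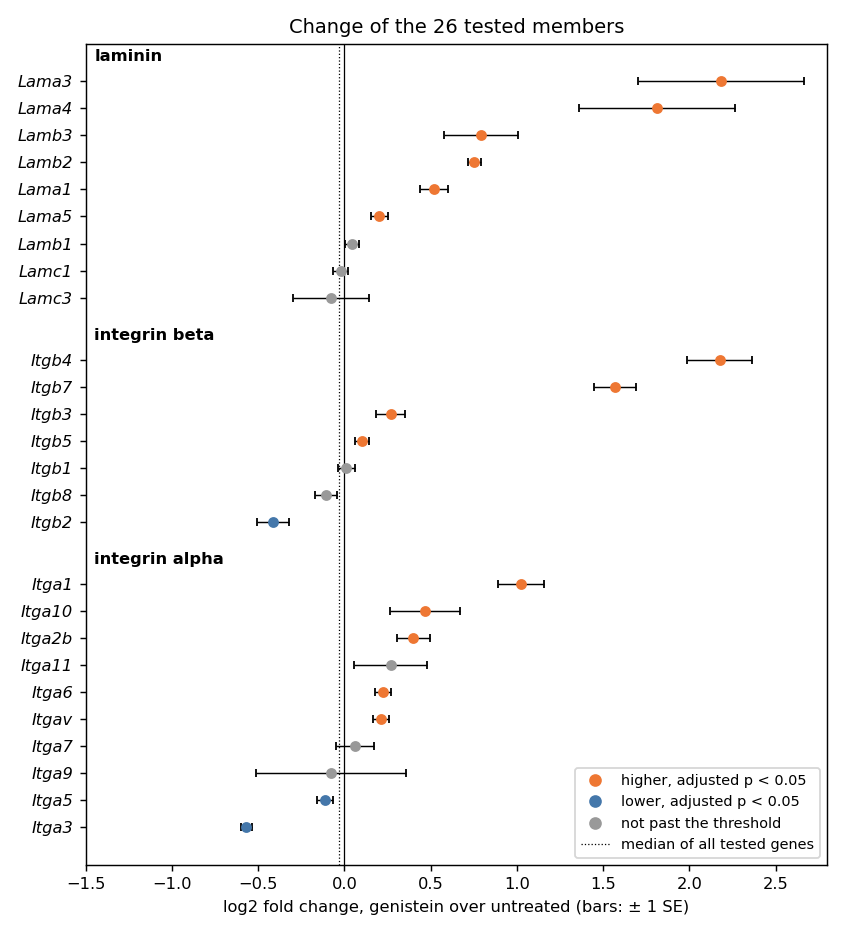
Log2 fold change of genistein over untreated with 1 SE for each tested gene, by class; colour marks the direction at an adjusted p under 0.05, and the dotted line is the median of all tested genes. Points lie from -0.57 for Itga3 to 2.18 for Lama3, and 15 lie to the right with an adjusted p under 0.05.

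The collagen receptor chains were low in both groups, and Itga1 rose among them. Itga1 (ENSMUSG00000042284, chr13:114953096-115101964, minus strand) encodes the alpha chain of a receptor for collagen IV. It had 97.9 and 93.2 normalised counts in untreated and 180 and 209.5 in genistein libraries, so each treated library was above both untreated ones. The change was 2.03-fold (log2 fold change 1.02 ± 0.13 SE, adjusted p = 3e-06, edgeR), and the log2 value was 0.91 without genistein replicate 2 and 0.98 without untreated replicate 2. An intron of Itga1 holds Pelo on the same strand, which moved the other way (log2 fold change -0.29). Itga10 had 52.9 and 42.3 normalised counts in untreated and 74.1 and 57.7 in genistein libraries (log2 fold change 0.47 ± 0.20, adjusted p = 0.048, edgeR), and its annotation overlaps that of Gm42957 on the same strand. That call was lost without untreated replicate 2 (adjusted p = 0.21), without genistein replicate 1 (0.38) and in DESeq2 (0.26). Itga11, at 49.9 and 37.1 against 49.7 and 55.7, did not pass the test (adjusted p = 0.27, edgeR).

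The laminin receptor chains moved in both directions. Itga3 (chr11:95044474-95076801, minus strand), which pairs with Itgb1, had 6058 and 6033 normalised counts in untreated and 4125 and 4025 in genistein libraries. It fell by 0.57 ± 0.03 on the log2 scale (adjusted p = 1e-10, edgeR), which is 1.48-fold, and the groups were far apart relative to their spread. Itga6 (chr2:71745616-71858416, plus strand), which pairs with Itgb1 or Itgb4, went from 1228 and 1292 to 1461 and 1483 normalised counts (log2 fold change 0.22 ± 0.05, adjusted p = 0.00054, edgeR). Itgb4 (chr11:115974709-116008412, plus strand) encodes the long beta chain of hemidesmosomes, the anchors of epithelial cells to the basement membrane. It had 28.0 and 40.2 normalised counts in untreated and 167 and 139.7 in genistein libraries, a 4.51-fold rise (log2 fold change 2.17 ± 0.19, adjusted p = 2.4e-08, edgeR). The 10 epithelial markers went down in sum between the same libraries, as given above. Itga7, a muscle laminin receptor chain, had overlapping groups at 163 and 173 against 171 and 179 (adjusted p = 0.64, edgeR).

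The receptors for RGD ligands changed little in size. Itgav (chr2:83724397-83806916, plus strand) had 9890 and 10124 normalised counts in untreated and 11327 and 11854 in genistein libraries, which is a small rise (log2 fold change 0.21 ± 0.05, adjusted p = 0.00053, edgeR). Itga5 (chr15:103344286-103366763, minus strand) had 2615 and 2637 against 2547 and 2307, and its fall of 0.11 ± 0.04 on the log2 scale was close to the threshold (adjusted p = 0.031, edgeR). Itgb5 (chr16:33829665-33949338, plus strand), a partner of Itgav, had 1734 and 1713 against 1807 and 1896 (log2 fold change 0.10 ± 0.04, adjusted p = 0.041, edgeR). These groups did not overlap, but without genistein replicate 2 the adjusted p was 0.45 for Itga5 and 0.27 for Itgb5, and the Itgb5 call was also lost without either untreated replicate. With other scalings the Itga5 value shrank to -0.069 (factors from genes alone, adjusted p = 0.17) and -0.044 (library totals, adjusted p = 0.39), and in DESeq2 the adjusted p was 0.085 for Itga5 and 0.24 for Itgb5. The Itgb5 call was lost as well with RLE size factors (adjusted p = 0.064) and with no filter (0.18). Itgb3, the beta chain of the vitronectin and fibrinogen receptors, had 382 and 331 against 445 and 414 (log2 fold change 0.27 ± 0.08, adjusted p = 0.0094, edgeR). Without untreated replicate 2 the adjusted p was 0.15, and in DESeq2 it was 0.094. Itgb8, which takes part in TGF-beta activation with Itgav, had 688 and 661 against 609 and 646 (adjusted p = 0.13, edgeR).
Itga2b, the alpha chain of the platelet fibrinogen receptor, had 275 and 259 normalised counts in untreated and 381 and 323 in genistein libraries (log2 fold change 0.40 ± 0.10, adjusted p = 0.0015, edgeR). Of the 5 megakaryocyte and platelet markers, Gp9 and Gp1ba were at 0 in the same libraries and Pf4 at 0 or 1 counts, whereas Gp1bb had 49 and 44 counts in untreated and 65 and 47 in genistein libraries and Ppbp had 12 and 12 against 13 and 18. Their part in the Itga2b values was not tested.

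The shared chain Itgb1 (chr8:128685654-128733200, plus strand) had 16515 and 16406 normalised counts in untreated and 16121 and 17061 in genistein libraries. The groups overlapped, and the log2 fold change was 0.01 ± 0.05 (adjusted p = 0.84, edgeR). Itga9, which pairs with it, was near the count filter at 9.99 and 18.0 against 17.8 and 8.10 normalised counts, also with overlapping groups (adjusted p = 0.88, edgeR).

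Of the 7 leukocyte chains, Itgb2 and Itgb7 were tested and moved in opposite directions. Itgb7 (ENSMUSG00000001281, chr15:102215995-102231944, minus strand), the beta chain of lymphocyte homing receptors, had 84.9 and 77.3 normalised counts in untreated and 246 and 236 in genistein libraries. The rise was 2.96-fold (log2 fold change 1.57 ± 0.12, adjusted p = 7.9e-09, edgeR). Its known alpha partners had no more than 2 counts in any library, Itga4 having none and Itgae 0 to 2. Itgb2 (chr10:77530252-77565708, plus strand), the common beta chain of leukocyte integrins, fell from 362 and 354 to 290 and 247 (log2 fold change -0.41 ± 0.09, adjusted p = 0.00087, edgeR). Its known partners Itgal, Itgam, Itgax and Itgad had at most 5 counts in a library. The summed leukocyte markers went up between these libraries with Ptprc at 0 or 1 counts.

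The laminin alpha chains Lama5 and Lama1 rose. Lama5 (chr2:180176373-180225859, minus strand), the main alpha chain here, had 11526 and 12131 normalised counts in untreated and 14015 and 13187 in genistein libraries (log2 fold change 0.20 ± 0.05, adjusted p = 0.0017, edgeR). Lama1, the chain of the embryonic basement membrane, went from 290 and 312 to 416 and 447 (log2 fold change 0.52 ± 0.08, adjusted p = 2.8e-05, edgeR). Both were separated between the groups. Lama3, the alpha chain of the epithelial laminin, had 4 and 5 counts in untreated and 16 and 28 in genistein libraries, and Lama4, the chain of vessels, had 5 and 4 against 16 and 18. Their log2 fold changes of 2.18 ± 0.48 and 1.81 ± 0.45 (adjusted p = 0.00069 and 0.0019, edgeR) rest on these few counts, and both entered the test through the group where they were high. The adjusted p of Lama4 was 0.052 in DESeq2.

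The laminin beta chains changed unequally. Lamb1 (chr12:31265234-31329644, plus strand) had 8695 and 8654 normalised counts in untreated and 9040 and 8880 in genistein libraries (log2 fold change 0.05 ± 0.04, adjusted p = 0.31, edgeR). Lamb2 (chr9:108479736-108490530, plus strand), the alternative beta chain known from synapses and the kidney filter, went from 1920 and 1998 to 3289 and 3318. That is a 1.69-fold rise with little spread in either group (log2 fold change 0.75 ± 0.04, adjusted p = 2.8e-11, edgeR). Lamb3, the beta chain of the epithelial laminin, rose from 31.0 and 29.6 to 51.6 and 53.6 (log2 fold change 0.79 ± 0.21, adjusted p = 0.0035, edgeR), a call lost in DESeq2 (adjusted p = 0.084).

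The laminin gamma chains Lamc1 and Lamc3 did not pass the test. Lamc1 (chr1:153218922-153332786, minus strand), shared by most laminin trimers, had 10763 and 11069 normalised counts in untreated and 10620 and 10876 in genistein libraries, with overlapping groups (log2 fold change -0.02 ± 0.04, adjusted p = 0.66, edgeR). Lamc3, a low chain, had 44.0 and 40.2 against 44.1 and 35.4 (adjusted p = 0.76, edgeR).

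The make-up of the classes differed between the groups. On the per-kilobase scale, Itga3 went from 38.4% ± 0.34 (SD, n = 2) to 27.8% ± 0.28 of all alpha integrin counts, and Itgav from 33.8% ± 0.35 to 42.0% ± 1.65. Itga3 was the first and Itgav the second chain of the untreated libraries, and in the genistein libraries the order was the opposite. The untreated order depends on the length used: with the longest transcript in place of merged exons, Itgav had 38.4% and Itga3 33.6% in untreated libraries. Itga5 stayed at 19.3% ± 0.0040 and 19.1% ± 1.20. Itgb1 made up 84.2% ± 0.19 of the beta chains in untreated and 82.7% ± 0.56 in genistein libraries. Within the laminin beta chains, Lamb2 went from 26.8% ± 0.62 to 37.3% ± 0.44 and Lamb1 from 72.8% ± 0.61 to 62.1% ± 0.45. Lama5 was 97.0% and 96.1% of the laminin alpha counts.
Summed per kilobase, the alpha integrins had 2745 and 2769 in untreated against 2583 and 2557 in genistein libraries, and the laminins 3549 and 3649 against 4028 and 3978. With this scaling, neither class overlapped between the groups. The beta integrins, at 4815 and 4768 against 4797 and 5029, did. These sums, unlike the shares, depend on the scaling between libraries.

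**Figure D3:**
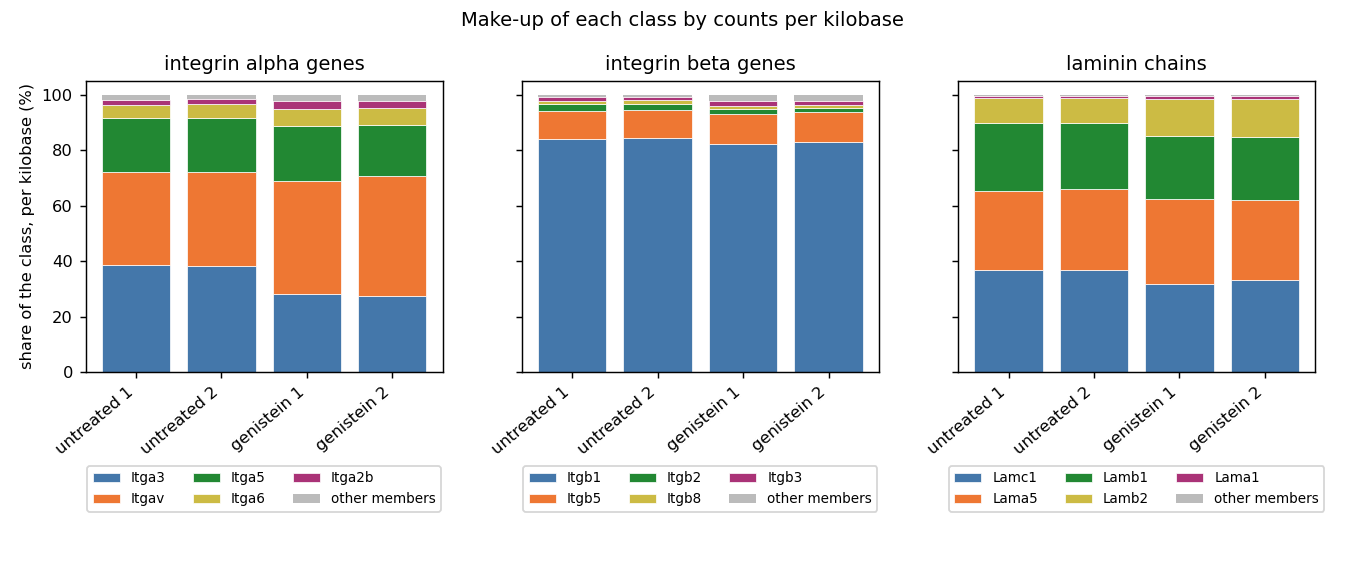
Share of each gene in the summed counts per kilobase of merged exon of its class (%), with a stacked bar for each of the 4 libraries. In the genistein libraries the Itga3 part is smaller (27.8% against 38.4%), the Itgav part larger (42.0% against 33.8%) and the Lamb2 part of all laminin chains larger (13.6% against 8.95%).

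Ratios of chains within a library do not depend on library scaling. The smallest p that an exact permutation test (two-sided) allows at this group size is 0.333, so these ratios are given with their spread and no test. The log2 ratio of Itga3 to Itgav, per kilobase, was 0.19 ± 0.028 (SD, n = 2) in untreated and -0.60 ± 0.071 in genistein libraries. The ratio of Lamb2 to Lamb1 was -1.44 ± 0.045 and -0.73 ± 0.027. Both of these were separated between the groups, as was that of Itgb4 to its partner Itga6, at -4.87 ± 0.32 and -2.91 ± 0.20. In contrast, the values of Itgb3 to Itgb5 and of Itga2b to its partner Itgb3 overlapped between the groups, with differences of 0.17 and 0.12.

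**Figure D4:**
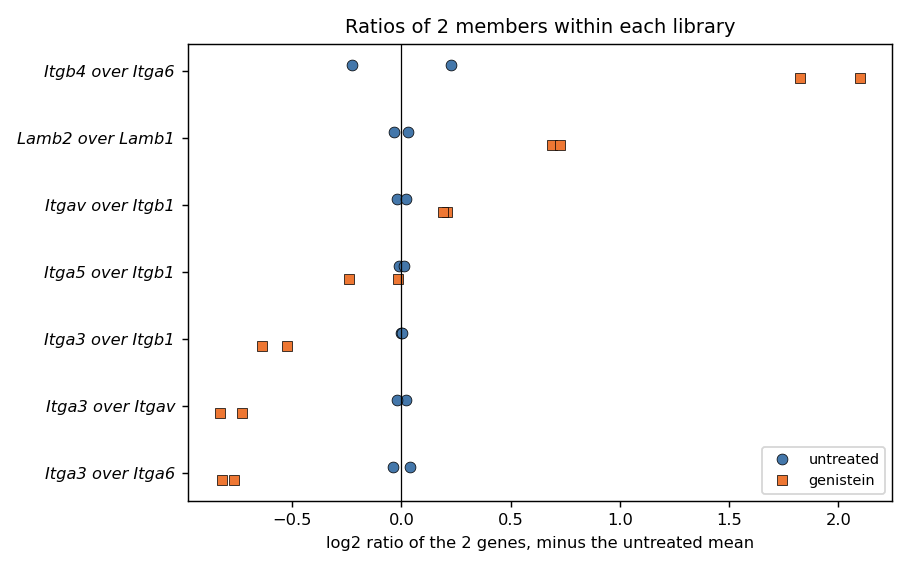
Log2 ratio of pairs of genes in each library, minus the untreated mean of that ratio, with circles for untreated and squares for genistein libraries. Itgb4 over Itga6 lies 1.96 above the untreated mean on average, and Itga3 over Itgav lies at -0.78.

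The genes around the receptors were compared as 3 lists. Of 35 listed matrix ligands of integrins, 23 were tested, of which 5 rose and 14 fell, with a median log2 fold change of -0.24. That is 21.7% and 60.9% of the list, beside 33.5% and 38.2% of all tested genes. Past all thresholds were Spp1 (osteopontin), which went from 7012 and 6865 to 1457 and 1402 normalised counts (log2 fold change -2.28 ± 0.04), Ccn2, a matricellular protein, at 4143 and 3988 against 1487 and 1476 (-1.46 ± 0.04), and Thbs2 (thrombospondin), at 88.9 and 68.8 against 156.6 and 180.2 (1.09 ± 0.15).
Of 37 listed partners of laminins in the basement membrane, 27 were tested, of which 19 rose and 4 fell (70.4% and 14.8%, beside the same 33.5% and 38.2%), with a median of 0.39. Past all thresholds were Mcam, a laminin-binding adhesion molecule (67.9 and 74.1 against 318 and 302, log2 fold change 2.13 ± 0.12), Fras1 (1.45 ± 0.09), Fbln1 (1.23 ± 0.05), Ntn4 (1.14 ± 0.10) and, downwards, Col7a1, the collagen of anchoring fibrils (-1.20 ± 0.10). The adjusted p of each of these 8 genes was at most 6.7e-06 (edgeR).
Of 59 listed cytoplasmic and membrane partners of integrin adhesions, 55 were tested, of which 23 rose and 18 fell, with a median of 0.04. These shares, 41.8% and 32.7%, were near those of all tested genes. Ptk2b, a kinase related to the focal adhesion kinase, was past all thresholds, at 528 and 549 normalised counts in untreated and 1934 and 1824 in genistein libraries (log2 fold change 1.80 ± 0.06, adjusted p = 8.7e-14, edgeR). The focal adhesion kinase itself, Ptk2, had 4237 and 4138 against 3924 and 4019 and did not pass the test (adjusted p = 0.0503, edgeR).

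**Figure D5:**
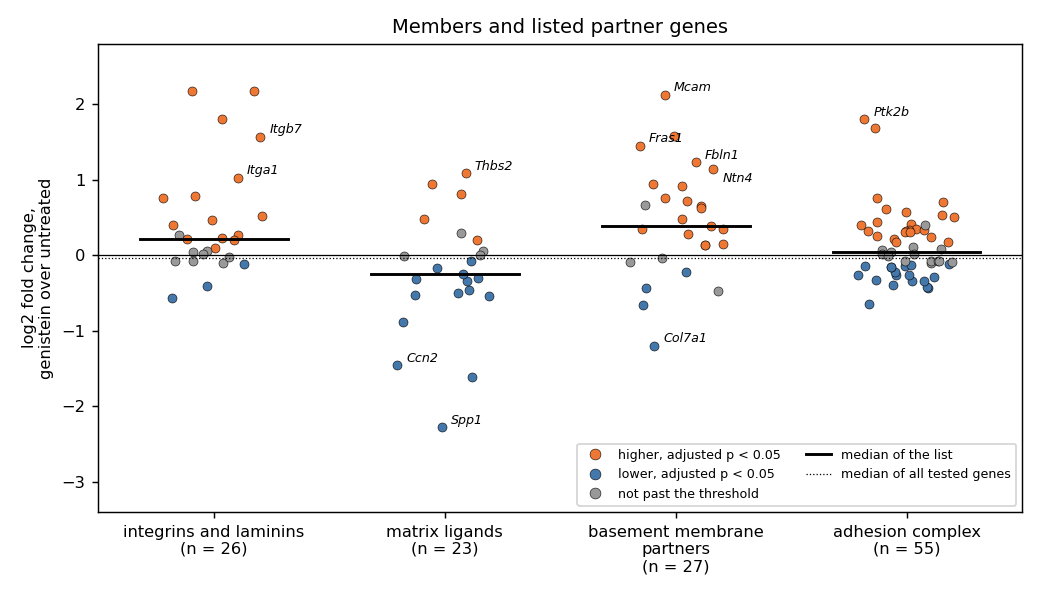
Log2 fold change of genistein over untreated for each tested gene of the integrin and laminin family and of 3 partner lists, with a bar at the median of each and names for genes past all thresholds. The medians are 0.22 for integrins and laminins, -0.24 for matrix ligands, 0.39 for basement membrane partners and 0.04 for the adhesion complex.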

How the data were processed

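Total RNA depleted of ribosomal RNA was sequenced by the authors as 150 bp paired ends from TruSeq Stranded libraries, and the values analysed are the deposited counts per gene and repeat family. Per the submitters' notes and methods, reads were trimmed with Trim Galore 0.4.0, aligned to mm10 with STAR 2.5.2 with up to 100 alignments per read, and counted by TEtranscripts 1.5.1 on Gencode M9, so reads with several positions were shared among entries. The counter's strand setting is not given in the sources used here.

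From these counts, edgeR 4.0.16 (R 4.3.3) was fitted to all 4 libraries with TMM factors, filterByExpr (about 10 counts in 2 libraries) and the quasi-likelihood test, leaving 16240 genes and 1118 repeats, over which p-values were adjusted (Benjamini-Hochberg). The SE is the log2 fold change divided by the square root of F. An unnamed row, at most 0.0031% of counts, was left out. The procedure was tested on simulated data. Coordinates and exon lengths are from GENCODE M21 (GRCm38) and promoters from RefSeq.

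Of 37 genes that met the symbol rule, 1 is not reported here and is in none of the counts, medians or sums given for the family. The genes, lists and tests were chosen with earlier results of these data known. Full values were given for the 3 highest genes per class by untreated counts per kilobase and for genes past all thresholds (adjusted p under 0.05, absolute log2 fold change over 1, mean normalised count over 100), with partner chains added. Alternatives were DESeq2 1.42.0, other scalings, no filter, a replicate block, other thresholds, another gene length and leaving out each library. Columns of fold changes or p-values were not used.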

Additional observations from a re-analysis of the deposited data

How the results depend on the processing

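The counts of integrin and laminin genes at an adjusted p under 0.05 were between 10 (DESeq2) and 16 (library totals) higher and between 2 and 3 lower. The share of all tested genes is given above for the main fit alone. These counts, and those past all thresholds below, therefore do not show whether the difference from that share held under each alternative. Leaving out Lama3 and Lama4, a choice made after seeing the data, gave 13 higher and 3 lower. The count past all thresholds was less stable. The 2 higher genes became 1 with no filter and 1 when the fold threshold itself was tested, and 5 with a mean normalised count over 10, while leaving out each library gave 1 to 3. The count was 3 without untreated replicate 1 and 1 without genistein replicate 2. Itga1 was short of the fold threshold without genistein replicate 2 (0.91) and without untreated replicate 2 (0.98).

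Of 260 fits of single genes under these alternatives, 234 kept the direction and the side of the threshold, 18 lost significance, 1 gained it (Lamb1, with library totals) and 7 changed sign. The sign changed for genes that did not pass the test in any of these fits: Itga9 (-0.76 to 0.39 over the fits that left out a library), Itgb1 (-0.014 with no filter, -0.029 to 0.057 over those fits), Lamc1 (0.021 with factors from genes alone and 0.048 with library totals) and Lamc3 (-0.24 to 0.066 over those fits). Lost calls were those of Itga5, Itga10, Itgb5, Itgb3, Lamb3 and Lama4, and the cause was not tested. The median over all genes was between -0.04 and 0.04 in every fit.

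With the longest transcript in place of merged exons, the untreated shares of a class became 33.6% for Itga3, 38.4% for Itgav, 16.1% for Itga5, 84.0% for Itgb1, 10.2% for Itgb5, 2.34% for Itgb2, 32.8% for Lamc1, 23.8% for Lama5 and 34.4% for Lamb1.

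Replicate numbers are shared by the groups, but the replicate differences of the groups did not correlate (r = -0.030 over 17358 entries, 2 pairs), so the numbers are not shown to pair the libraries. With a replicate block, 14 genes were higher and 3 lower. The call lost was that of Itgb5 (log2 fold change 0.10, adjusted p = 0.059, edgeR).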

Other observations

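Gene names close to those of the integrins fell outside the rule and were looked at after the values were seen. Itgb3bp, a kinetochore protein named after an integrin chain, had 277 and 276 normalised counts in untreated and 217 and 246 in genistein libraries (log2 fold change -0.26 ± 0.10, adjusted p = 0.025, edgeR). Itgb2l had no count in any library, and Itgbl1 had 0 counts in both untreated and 0 and 3 counts in the genistein libraries.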
